A study of Capra hircus with 9 samples.

Results

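The miR-106b-25 cluster is a group of 3 miRNA hairpins, miR-106b, miR-93 and miR-25, that are made together from one primary transcript. Its members were taken here as every miRNA of the count table whose name begins with chi-miR-106b, chi-miR-93 or chi-miR-25, on both arms of each hairpin. This gave 6 of the 1359 listed mature miRNAs, and all 6 passed the filter on low counts that 696 miRNAs passed. The libraries were small RNA libraries of whole mammary gland from Laoshan dairy goats in the third parity, aged between 3 years and 8 months and 4 years and 1 month, kept on 1 farm under uniform conditions. No treatment or genetic change was applied, and the groups differed by stage. Late lactation (LL) was sampled at 240 days postpartum, the dry period (DP) at 300 days postpartum and late gestation (LG) at 140 days after mating, with 3 goats and 1 library per goat in each stage. A goat was sampled at 1 stage, so the stages were different animals.

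A hairpin is cut into a short duplex with a 5p arm and a 3p arm. One arm is usually kept by the Argonaute protein as the guide strand, while the other is mostly degraded. The guide pairs with messenger RNAs mainly through its seed, a short stretch near its 5′ end, and lowers their translation and stability. miR-106b-25 lies inside the gene of MCM7, a subunit of the replicative DNA helicase, and in mammals it is expressed with that gene in dividing cells. It is known as a target of E2F factors, and its miRNAs repress the cell cycle inhibitor p21 (CDKN1A) and the pro-apoptotic protein BIM (BCL2L11). miR-106b-5p and miR-93-5p share the seed of the miR-17 family, and miR-25-3p shares the seed of the miR-92a family. Both families also have members in the paralogous clusters miR-17-92 and miR-106a-363. The mammary epithelium stops secreting milk and involutes around the dry period, and proliferates again in late gestation.

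In the goat assembly ARS1.2 the 3 hairpins lay on chromosome 25 in the order MIR106B (37229609 to 37229688), MIR93 (37229810 to 37229885) and MIR25 (37230006 to 37230104). All 3 were inside the span of the protein-coding gene MCM7 (37222911 to 37230890), which held 0 other miRNA genes. The hairpins spanned 496 bases in all, with 121 bases between MIR106B and MIR93 and 120 bases between MIR93 and MIR25.

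The counts of a library summed to 16451436 to 24616668 in LL, 13672653 to 23392916 in DP and 21301913 to 34378995 in LG. Levels are given as CPM (counts relative to a library's total), scaled between libraries by edgeR's TMM factors. chi-miR-148a-3p alone took 53.6% ± 5.51 of the counts in LL, 9.61% ± 1.07 in DP and 42.5% ± 2.74 in LG (SD, n = 3), so shares of a library's total moved with it. The summed level of 5 epithelial miRNAs (miR-141 and the miR-200 family) was 34893 to 42110 CPM in LL, 13064 to 20811 in DP and 34218 to 37559 in LG. All 5 were called lower in DP than LL and 3 lower in DP than LG, where 11.6% and 9.91% of all tested miRNAs were. Immune miRNAs (8 arms listed) summed to 8361 to 31563 CPM in LL, 2212 to 3925 in DP and 1263 to 5617 in LG, with DP and LG overlapping. Of the 7 tested, 5 were called higher in LL than LG and 5 higher in DP than LG, where 8.91% and 21.6% of all tested miRNAs were, and in DP against LL 1 was called higher and 2 lower. Of 12 stromal miRNAs (such as miR-143, miR-145 and miR-214), 8 were called higher in DP than LL and 9 higher in DP than LG, where 15.1% and 21.6% of all tested were. Their sums overlapped between DP (86077 to 212412 CPM) and LL (92074 to 145874), and were 68083 to 75990 in LG. Skeletal muscle miRNAs (5 arms) summed to 673 to 881 CPM in LL, 907 to 3404 in DP and 384 to 496 in LG, without overlap, and those of red blood cells (4 arms) to 364 to 551, 122 to 1284 and 87.1 to 168. Both arms of miR-126, of endothelium, summed to 15853 to 22980 CPM in LL, 19028 to 31975 in DP and 14716 to 16363 in LG. Of the tested arms of these lists, 1 of muscle was called higher in DP than LL, and 2 of muscle, 1 of red blood cells and 1 of endothelium higher in DP than LG. The part of these marker differences in the results below was not tested. In whole tissue, fewer cells of a type and less miRNA per cell cannot be told apart.

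The 6 miRNAs differed widely in abundance, and 1 of them dominated. chi-miR-25-3p had the 40th highest mean level of the 1359 miRNAs, with a mean of 1658 CPM ± 203.3 in LL, 2632 ± 977 in DP and 2778 ± 464 in LG (SD, n = 3). It held 77.2% ± 2.51, 76.1% ± 4.08 and 77.8% ± 1.29 of the cluster's counts in LL, DP and LG. Its share of the cluster overlapped between all stages, at 74.8% to 79.8% in LL, 73.1% to 80.8% in DP and 76.9% to 79.2% in LG. chi-miR-93-5p ranked 95th, chi-miR-106b-3p 115th and chi-miR-106b-5p 139th. The rarer arms of the other hairpins were far lower, with chi-miR-25-5p at rank 351 and chi-miR-93-3p at rank 412.

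**Figure D1:**
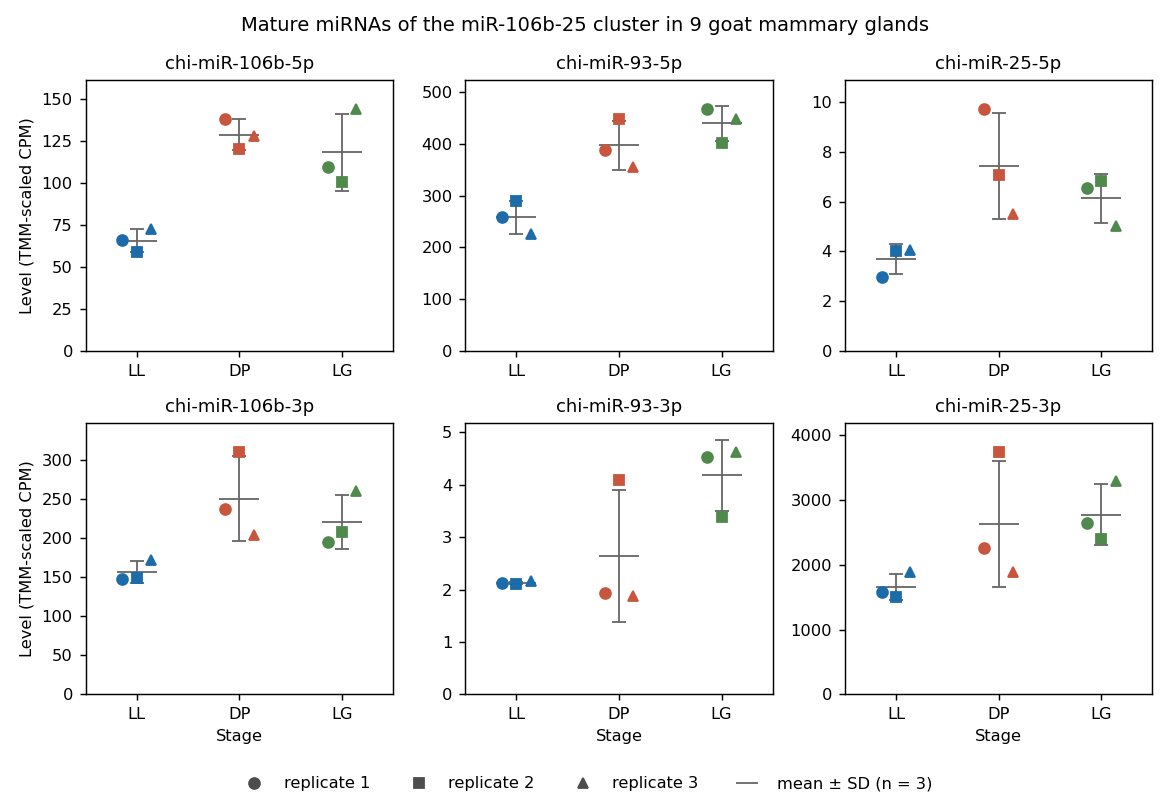
Level of each of the 6 mature miRNAs (y axis, TMM-scaled CPM, from 0) by stage (x axis), with 1 point per library, the replicate number as the symbol, and bars for the mean ± SD of 3 goats. The 3 LL libraries lie below the 3 LG libraries for all 6 miRNAs and below the 3 DP libraries for all except chi-miR-93-3p.

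On the TMM scale and as a share of the counts, late lactation had the lowest levels of the cluster. When library totals did not count chi-miR-148a-3p, all 6 members were still lower in LL than LG, but the median difference between DP and LL was then 0.06 on the log2 scale. Together the 6 miRNAs made up 0.172% ± 0.0160 of the counts in LL, 0.350% ± 0.0833 in DP and 0.432% ± 0.0885 in LG (SD, n = 3). On the TMM scale their summed level ranged from 2002 to 2364 CPM in LL, from 2583 to 4628 in DP and from 3116 to 4157 in LG. The LL libraries lay below those of both other stages on this sum, while DP and LG overlapped.

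The comparison of DP with LL covers the end of lactation. chi-miR-106b-5p, a guide strand with the miR-17 seed, had 66.0, 58.9 and 72.5 CPM in the LL libraries and 138, 121 and 128 CPM in the DP libraries. Every DP library exceeded every LL library. The log2 fold change of DP against LL was 0.97 (SE 0.24, 95% interval 0.45 to 1.49, edgeR adjusted p = 0.011), just under the limit of 1 that the study set for a differentially expressed miRNA. chi-miR-93-5p, with the same seed, had 260, 289 and 225 CPM in the LL libraries, whereas the DP libraries had 388, 448 and 356 CPM. These stages did not overlap either, and the log2 fold change was 0.62 (SE 0.21, interval 0.16 to 1.08, edgeR adjusted p = 0.0441). The p of chi-miR-93-5p was 0.0594 to 0.168 with any 1 library left out, and that of chi-miR-106b-5p was over the threshold without LL replicate 2 (0.0575). chi-miR-106b-5p passed both limits in 6 of the 9 analyses with 1 library left out, where its highest log2 fold change was 1.06, and by library size alone (1.36, edgeR adjusted p = 0.00428).

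chi-miR-25-3p, the guide with the miR-92a seed, reached 1589, 1498 and 1887 CPM in the LL libraries and 2268, 3738 and 1889 CPM in those of DP. The lowest DP library was level with the highest LL library, and DP replicate 2 stood well above the others. Its log2 fold change of 0.67 (SE 0.27, interval 0.07 to 1.26) missed the threshold with an edgeR adjusted p of 0.0866. chi-miR-106b-3p, the more abundant arm of its hairpin, was at 147, 150 and 173 CPM in the goats of LL and at 238, 310 and 204 CPM in those of DP, without overlap. Its log2 fold change was 0.68 (SE 0.24, interval 0.15 to 1.21, edgeR adjusted p = 0.0536).

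The minor arms were measured on few reads. chi-miR-25-5p had 38, 61 and 75 counts in the LL libraries, which gave 2.98, 4.03 and 4.05 CPM, against 9.73, 7.08 and 5.49 CPM in the DP libraries. The stages did not overlap, and with a log2 fold change of 1.01 (SE 0.33, interval 0.28 to 1.74, edgeR adjusted p = 0.042) it was the 1 member that passed both limits. That call was narrow. DESeq2, limma-voom and upper quartile scaling put the change at 0.97, 0.96 and 0.98, under the fold limit. The call was also lost without LL replicate 1, 2 or 3 (edgeR adjusted p = 0.104, 0.0765 and 0.0685) and without DP replicate 1 (log2 fold change 0.65, adjusted p = 0.133).

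chi-miR-93-3p had 27, 32 and 40 counts in LL and 31, 89 and 43 counts in DP. A count of 27 carries an exact Poisson 95% interval of 17.8 to 39.3, which covers counting error only. The levels were 2.12, 2.11 and 2.16 CPM in the LL libraries, against 1.95, 4.09 and 1.87 CPM in the DP libraries, so DP replicate 2 alone lay above the LL libraries. The log2 fold change was 0.31 (SE 0.38, edgeR adjusted p = 0.563), and it was −0.11 without DP replicate 2.

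Of the 6 members, 1 passed both limits as higher in DP than LL, where 15.1% of all tested miRNAs did, and 3 passed at any fold, where 17.2% did. The libraries of both stages were apart, with DP higher, for 5 of the 6 members and for 21% of all tested miRNAs. The members had a median log2 fold change of 0.67, and all tested miRNAs had one of 0.12. Scaling moved both. By library size alone the median of all tested was 0.49 and that of the members 1.03, and 4 members were called, where 23.7% of all tested were called higher. With chi-miR-148a-3p also left out of the totals, the medians were −0.48 and 0.06. No member was called then, where 4.6% of all tested were called higher, and the log2 fold changes of chi-miR-106b-5p and chi-miR-93-5p were 0.39 and 0.01 (edgeR adjusted p = 0.253 and 0.968). Relative to the median of all tested miRNAs, all 6 members were at or above it in 18 of 19 alternative analyses and 5 were in the one without DP replicate 2.

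The comparison of LL with LG sets the secreting gland beside the gland shortly before birth. All 6 members had their 3 LL libraries below their 3 LG libraries, a separation in that direction that 17.4% of all tested miRNAs showed. chi-miR-106b-5p had 110, 101 and 144.2 CPM in LG, and its log2 fold change of LL against LG was −0.85 (SE 0.24, interval −1.37 to −0.32, edgeR adjusted p = 0.0379). chi-miR-93-5p had 468, 402 and 449 CPM in LG, with −0.77 (SE 0.21, interval −1.23 to −0.31, adjusted p = 0.0339). These were the 2 members that passed at any fold, where 4.89% of all tested miRNAs passed as lower. Both missed the threshold without LL replicate 1, 2 or 3, LG replicate 1 or LG replicate 3, with an adjusted p of at most 0.0955 for chi-miR-106b-5p and 0.0759 for chi-miR-93-5p.

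chi-miR-25-3p had 2645, 2395 and 3293 CPM in LG, each above the highest LL library. Its log2 fold change was −0.74 (SE 0.27, edgeR adjusted p = 0.0866). The other members had 195, 208 and 261 CPM (chi-miR-106b-3p), 6.55, 6.83 and 5.01 CPM (chi-miR-25-5p) and 4.53, 3.40 and 4.62 CPM (chi-miR-93-3p) in LG. Their log2 fold changes were −0.50, −0.73 and −0.97, with edgeR adjusted p-values of 0.179, 0.149 and 0.108. The change of chi-miR-93-3p was the largest of the 6 and also had the widest interval, from −1.81 to −0.14.

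No member passed both limits in LL against LG by edgeR, where 3.88% of all tested miRNAs passed as lower, although 5 of the 6 had an unadjusted p under 0.05 against 33% of all tested. DESeq2 called 2 members, chi-miR-106b-5p (−1.02) and chi-miR-93-3p (−1.16), and 8.48% of all tested as lower. limma-voom called 0 members and 4.31% of all tested. Scaling by library size alone called all 6 members, at −1.09 to −1.56, and 12.9% of all tested. The members had a median log2 fold change of −0.76, and all tested miRNAs had one of 0.17. In all 19 alternative analyses every member lay below the median of all tested, also where scaling by library size shifted that median to −0.42.

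**Figure D2:**
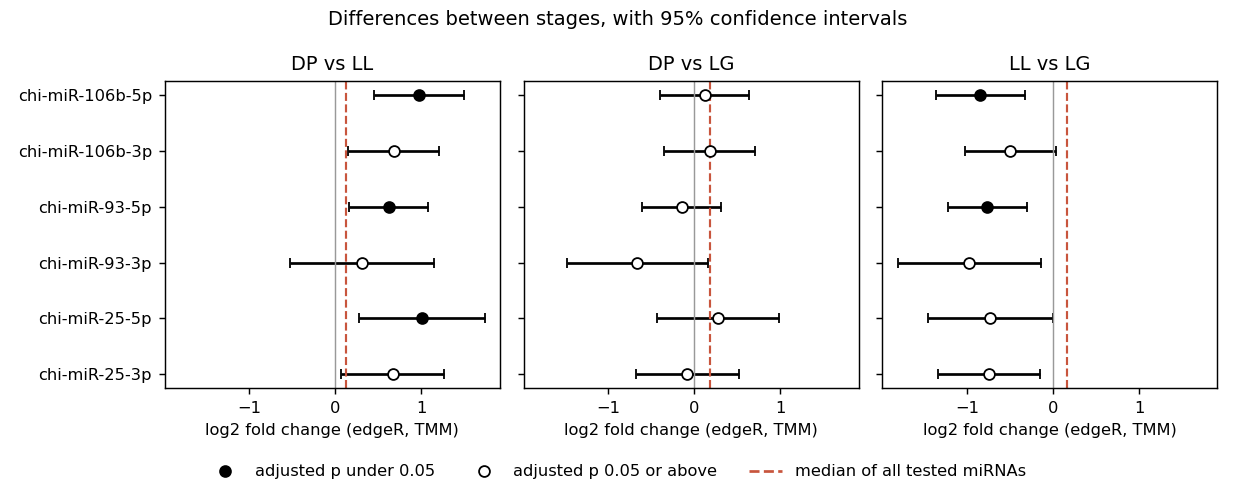
log2 fold change of each member in the 3 comparisons (x axis, edgeR with TMM scaling) with 95% confidence intervals; filled points have an adjusted p under 0.05 and the dashed line is the median of all 696 tested miRNAs. The members lie to the right of that line in DP vs LL and to the left of it in LL vs LG, and spread around it in DP vs LG.

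Between DP and LG, the stages on either side of the return to growth, no member was called in the main analysis. On the TMM scale the DP and LG libraries overlapped for all 6 members, whereas the stages were apart for 27.7% of all tested miRNAs with DP higher and for 17% with DP lower. By library size alone, chi-miR-93-5p and chi-miR-93-3p did not overlap and were lower in DP. The share of all tested miRNAs without overlap was counted on the TMM scale only, so these have no background to be read against. The log2 fold changes of DP against LG were 0.12 for chi-miR-106b-5p, 0.18 for chi-miR-106b-3p, −0.15 for chi-miR-93-5p, −0.08 for chi-miR-25-3p, 0.28 for chi-miR-25-5p and −0.66 for chi-miR-93-3p. None was called by edgeR, DESeq2 or limma-voom (edgeR adjusted p of 0.197 to 0.844) and 0 had an unadjusted p under 0.05, where 31.5% of all tested miRNAs were called and 44.7% had such a p. The intervals still allowed changes, from −0.39 to 0.64 for chi-miR-106b-5p and from −0.67 to 0.52 for chi-miR-25-3p. The signs of chi-miR-106b-5p, chi-miR-106b-3p and chi-miR-25-5p turned under other scalings. chi-miR-93-3p was called lower in DP without DP replicate 2 (−1.26, edgeR adjusted p = 0.0187) and with a minimum of 10 counts in each library (−1.04, adjusted p = 0.0269). Of all tested miRNAs, 9.78% and 14.5% were called lower in those 2 settings. With library totals that left out chi-miR-148a-3p, 27.8% of all tested miRNAs were called lower in DP, and so were chi-miR-93-5p (−1.02, edgeR adjusted p = 0.00542) and chi-miR-93-3p (−1.57, adjusted p = 0.00746). chi-miR-106b-5p, chi-miR-106b-3p and chi-miR-25-3p then had an adjusted p of 0.04, 0.035 and 0.0121 below the fold limit. All 3 comparisons share libraries, so they are not independent of each other.

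The paralogous clusters offered the nearest comparison. The list held miR-17, miR-18a, miR-18b, miR-19a, miR-19b, miR-20a, miR-20b, miR-92a, miR-106a and miR-363, with miR-92b, a miR-92a family member from neither cluster. Of its 19 listed arms 15 were tested, and 7 of these share a seed with a guide of miR-106b-25. miR-18 and miR-19 have other seeds, as do the passenger arms. In DP against LG, 7 of these 15 were called lower and 0 higher, where 9.91% of all tested miRNAs were called lower, and all 15 had a negative log2 fold change, with a median of −0.99. In every alternative analysis the tested paralogues were again all negative there, and between 5 (without LG replicate 1, where 9.55% of all tested were called lower) and 15 were called. The 15 came with library totals that did not count chi-miR-148a-3p, where 27.8% of all tested were called lower and their median was −0.66. Of the 7 with a shared seed, 4 were called lower, with a median of −1.02. The members of miR-106b-25 had a median of 0.02 in the same comparison. In DP against LL the paralogues had 3 called lower, chi-miR-106a-5p (−1.25), chi-miR-20b (−1.60) and chi-miR-363-3p (−1.74), which are products of miR-106a-363, and 0 higher, where 11.6% of all tested miRNAs were called lower. Of the 15, 10 were below 0, among them 5 of the 7 with a shared seed. The abundant chi-miR-20a-5p (0.53, edgeR adjusted p = 0.0945) and chi-miR-17-5p (0.37, adjusted p = 0.2) were above 0. Both had every DP library above every LL library, as had 21% of all tested miRNAs. The list's median was −0.26. By library size alone it was 0.09 and 2 were called, beside 8.48% of all tested. By library totals without chi-miR-148a-3p it was −0.86 and 7 were called, beside 22.6% of all tested, whose median was −0.48. In LL against LG 1 paralogue was called lower, chi-miR-18a-5p (−1.14), where 3.88% of all tested were, and the list's median of −0.71 was close to the −0.76 of the members. The count was 0 without LL replicate 2 (1.75% of all tested) and up to 8 by library size alone (12.9% of all tested).

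**Figure D3:**
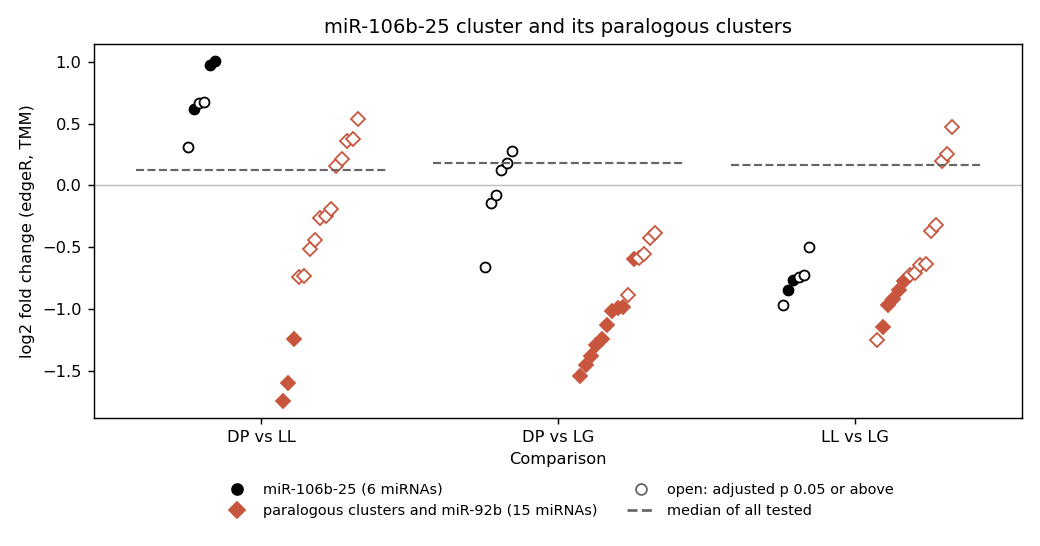
log2 fold change (y axis, edgeR with TMM scaling) of the 6 cluster miRNAs (circles) and the 15 tested miRNAs of the paralogous clusters and miR-92b (diamonds) in each comparison (x axis), filled where the adjusted p was under 0.05, with the median of all tested miRNAs as a dashed line. In DP vs LG all 15 diamonds lie below 0, from −1.54 to −0.39, while the circles run from −0.66 to 0.28.

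Within a seed family the contribution of miR-106b-25 can be read as a ratio of counts in the same library, which no scaling between libraries can change. The reference was the most abundant tested miRNA of the same seed from another cluster, chi-miR-92a-3p for chi-miR-25-3p and chi-miR-20a-5p for the other guides. The ratio of chi-miR-25-3p to chi-miR-92a-3p was 1.15, 0.828 and 0.986 in LL, 1.85, 2.28 and 1.33 in DP and 0.864, 0.832 and 1.19 in LG. Each DP library had a higher ratio than every library of the other stages, and LL and LG overlapped.

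The ratio of chi-miR-25-3p to chi-miR-92a-3p was 1.81-fold higher in DP than LL (log2 change 0.86, SE 0.26, interval 0.28 to 1.43, limma adjusted p = 0.0295 over 695 miRNAs). It was 1.87-fold higher in DP than LG (log2 change 0.90, SE 0.26, interval 0.33 to 1.48, limma adjusted p = 0.0135). Against the same reference 20.4% of all tested miRNAs were higher in DP than LL and 48.5% were higher in DP than LG, so that a higher ratio to chi-miR-92a-3p in DP was common. The median change of all tested relative to chi-miR-92a-3p was 0.27 in DP against LL, below that of chi-miR-25-3p, and 1.14 in DP against LG, above it. Between LL and LG the change was 0.05 (interval −0.53 to 0.62, limma adjusted p = 0.905). The DP against LL call was lost without LL replicate 2 (0.74, adjusted p = 0.115), LL replicate 3 (0.86, adjusted p = 0.0708), DP replicate 1 (0.83, adjusted p = 0.0508) or DP replicate 2 (0.68, adjusted p = 0.0856). The DP against LG call was lost without LG replicate 1 (0.83, adjusted p = 0.0545) or LG replicate 2 (0.81, adjusted p = 0.0571).

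The makeup of the miR-92a seed family was read from the same counts. chi-miR-25-3p supplied 34.4% ± 3.60 of the counts of its 4 listed members (with chi-miR-92a-3p, chi-miR-92b and chi-miR-363-3p) in LL, 50.3% ± 6.87 in DP and 33.3% ± 4.27 in LG (SD, n = 3). The lowest DP library, at 42.9%, was above the highest of the others, at 38.2% in LG replicate 3. The summed level of that family was 4848 CPM ± 643 in LL, 5143 ± 1282 in DP and 8326 ± 405 in LG. On the TMM scale the mean family total of DP was thus near that of LL, with DP replicate 2 at 6624 CPM. A larger part of it came from chi-miR-25-3p. By library size the LL and DP means were 1327 and 2684 CPM for chi-miR-25-3p and 1377 and 1470 for chi-miR-92a-3p. They were 1175 and 1098 for chi-miR-92b and 31.1 and 12.3 for chi-miR-363-3p, so the nearness of the totals depends on the scaling.

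In the miR-17 seed family, no ratio to the seed mate passed the test. The ratio of chi-miR-106b-5p to chi-miR-20a-5p was 0.166, 0.139 and 0.185 in LL, 0.193, 0.253 and 0.227 in DP and 0.123, 0.145 and 0.203 in LG. DP lay above LL but overlapped LG, and the log2 changes of 0.46 against LL (interval −0.17 to 1.09, limma adjusted p = 0.258) and 0.54 against LG (interval −0.09 to 1.17, adjusted p = 0.18) missed the threshold, which 4.46% and 28.9% of all tested miRNAs passed as higher relative to chi-miR-20a-5p. The ratio of chi-miR-93-5p to chi-miR-20a-5p overlapped between all stages, with means of 0.637 ± 0.0537 in LL, 0.704 ± 0.211 in DP and 0.578 ± 0.0552 in LG (SD, n = 3). Its log2 changes were 0.11 in DP against LL and 0.25 in DP against LG, and limma's adjusted p was 0.79 and 0.544.

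chi-miR-106b-5p and chi-miR-93-5p together supplied 32.7% ± 1.41 of the counts of 6 listed miRNAs with the miR-17 seed in LL, 37.3% ± 3.39 in DP and 31.3% ± 2.61 in LG (SD, n = 3). The DP libraries (34.6% to 41.1%) all lay above those of LL (31.2% to 34.0%) and LG (28.7% to 33.9%). miRNAs of a seed family can have near-identical sequences, and how their reads were divided was not tested here. No member had counts equal to those of another listed miRNA in all libraries.

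**Figure D4:**
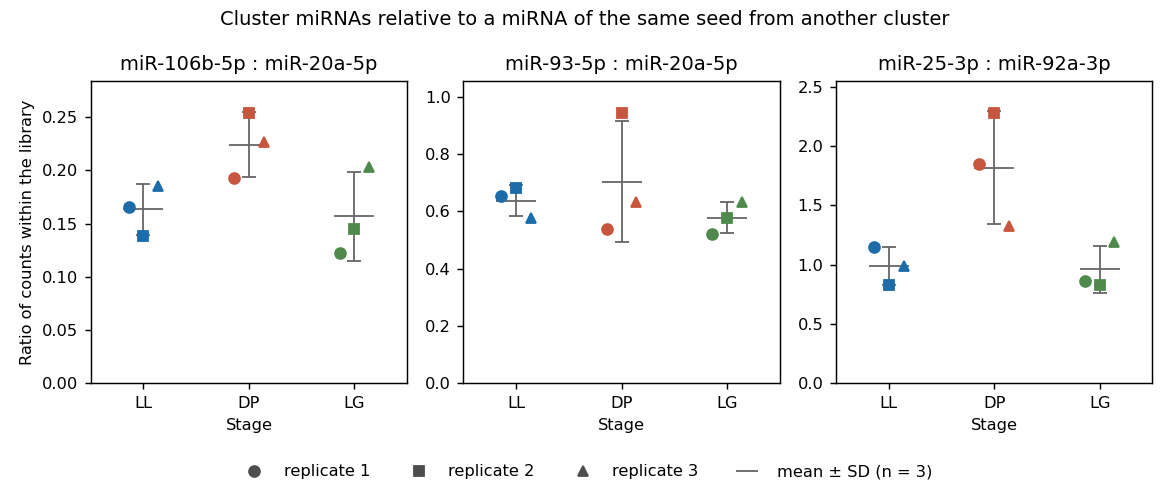
Ratio of counts (y axis, from 0) of 3 cluster miRNAs to a miRNA of the same seed from another cluster, by stage (x axis), with 1 point per library and bars for the mean ± SD of 3 goats. The ratio of miR-25-3p to miR-92a-3p is 1.33 to 2.28 in the DP libraries and at most 1.19 in the others.

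The balance of the arms is a property of each hairpin that scaling between libraries also leaves untouched. The miR-106b hairpin was among the more even ones, at rank 21 from the most even of 129 hairpins with both arms tested. Its 3p arm was the more abundant, with a ratio of 3p to 5p of 2.23, 2.54 and 2.38 in LL, 1.72, 2.57 and 1.59 in DP and 1.78, 2.06 and 1.81 in LG. All LL libraries lay above all LG libraries, while DP overlapped both. The 5p to 3p ratio of LL against LG had a log2 change of −0.34 (limma adjusted p = 0.514), and 27.1% of the 129 hairpins had no overlap between LL and LG. miR-93 and miR-25 were strongly one-sided, at ranks 98 and 109, and on opposite arms.

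The ratio of chi-miR-93-5p to chi-miR-93-3p was 123, 137 and 104 in LL, 199.2, 109 and 190 in DP and 103, 118 and 97.1 in LG. The ratio of chi-miR-25-3p to chi-miR-25-5p was 533, 372 and 466 in LL, 233, 528 and 344 in DP and 404, 351 and 658 in LG. Both overlapped between all stages. None of the 9 tests of the members' arm ratio passed (limma adjusted p of 0.176 to 0.976). Among the 129 hairpins 26.4% passed in DP against LL, 24.8% in DP against LG and 0% in LL against LG.

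The arm ratios set DP replicate 2 apart from the other DP libraries. Its miR-106b ratio of 2.57 and miR-93 ratio of 109 lay among or beside the LL values, whereas DP replicates 1 and 3 had 1.72 and 1.59, and 199.2 and 190. Without that library, the miR-106b arm ratio (5p to 3p) was higher in DP than LL by 0.53 on the log2 scale (limma adjusted p = 0.0488) and the miR-93 ratio was higher in DP than LG by 0.86 (limma adjusted p = 0.0443). The same library had 31.0 counts of chi-miR-25-3p per count of chi-miR-106b-5p, against 16.4 and 14.8 in DP replicates 1 and 3, 24.1 to 26.0 in LL and 22.8 to 24.1 in LG. Its summed level of red blood cell miRNAs (miR-144 and miR-451, 4 arms listed) was 1284 CPM, against 122 and 576 in DP replicates 1 and 3, 364 to 551 in LL and 87.1 to 168 in LG, and their part in these ratios was not tested.

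**Figure D5:**
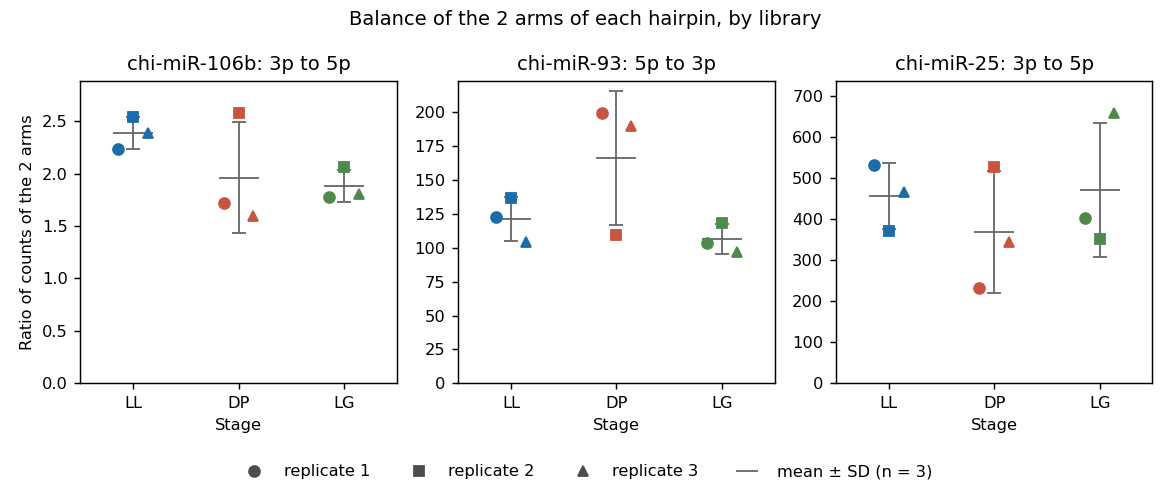
Ratio of counts of the more abundant to the less abundant arm (y axis, from 0) of each hairpin by stage (x axis), with 1 point per library and bars for the mean ± SD of 3 goats. DP replicate 2 (square) is the highest DP library for miR-106b (2.57) and miR-25 (528) and the lowest for miR-93 (109).

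The proportions between abundant members varied by pair. chi-miR-25-3p had 10.6 ± 0.492 counts per count of chi-miR-106b-3p in LL, 10.3 ± 1.53 in DP and 12.6 ± 1.01 in LG (SD, n = 3), and the LG libraries (11.5 to 13.6) lay above those of LL (at most 10.9). Its ratio to chi-miR-93-5p was 6.56 ± 1.64, 6.50 ± 1.62 and 6.32 ± 0.899 in LL, DP and LG. Its ratio to chi-miR-106b-5p was 25.2 ± 1.01 in LL and 23.6 ± 0.656 in LG, but 20.7 ± 8.94 in DP. Across the 9 libraries, chi-miR-106b-3p and chi-miR-25-3p were the most alike, with a root mean square difference of centred log2 CPM of 0.17. Each was the nearest of all tested miRNAs to the other, and chi-miR-106b-3p was also the nearest to chi-miR-106b-5p, at 0.24. The median difference to all tested miRNAs was 0.76 to 0.89 for the 6 members. For the minor arms the difference depended on the pair. chi-miR-93-3p was at 0.28 from chi-miR-25-3p and at 0.60 from chi-miR-25-5p, and chi-miR-25-5p was at 0.33 from chi-miR-106b-5p.

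Among miRNAs outside the cluster, chi-miR-93-5p was most like chi-miR-17-5p (0.22), with chi-miR-20a-5p (0.24) also among its 3 nearest, and both carry its seed. The nearest to chi-miR-106b-5p included chi-miR-324-5p (0.26) and chi-miR-485-5p (0.29), and the nearest to chi-miR-106b-3p were chi-miR-324-3p (0.22), chi-miR-125b-3p (0.22) and chi-miR-485-5p (0.25). chi-miR-25-3p was nearest to chi-let-7d-3p (0.22), followed by chi-miR-125b-3p (0.28) and chi-miR-485-5p (0.29). chi-let-7d-3p (0.23), chi-miR-17-5p (0.24) and chi-miR-2404 (0.25) were nearest to chi-miR-93-3p, and chi-miR-485-5p (0.23) and chi-miR-342-5p (0.27) were among the nearest to chi-miR-25-5p. These are descriptions over 9 libraries that share depth and stage.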

How the data were processed

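The authors deposited raw counts per mature miRNA, obtained with miRDeep2 on the assembly ARS1.2 after trimming, with known miRBase miRNAs and predicted ones in a joint reference. The submitters' processing notes name FastQC 0.11.9, cutadapt 4.2 and Bowtie 1.1.1, and the study's methods name Trimmomatic for trimming. LL replicate 3 was deposited as estimated counts, since 2 predicted miRNAs were not whole, and was rounded. The study's FPKM filter was not applied.

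edgeR 4.0.16 in R 4.3.3 (quasi-likelihood test, TMM) was fitted to all 9 libraries with stage as the only term, for the 696 miRNAs that reached 0.5 CPM in 3 or more libraries. A call needed, as in the study, a log2 fold change beyond 1 in either direction and an adjusted p (Benjamini-Hochberg) below 0.05. Tests are two-sided, and intervals are 95% intervals. Arm ratios (pseudocount 0.5) of 129 hairpins, and ratios to 1 reference miRNA, were tested with limma 3.58.1 at an adjusted p under 0.05. DESeq2 1.42.0 was an alternative. Likeness used log2 CPM with a prior count of 2. The edgeR test and both limma ratio tests were run on simulated data for DP against LL, whereas DESeq2 and limma-voom were not. A count of 0 allows up to 0.0873 to 0.219 CPM (3 counts), for counting error only, since PCR copies were not marked with molecular identifiers. Same-stage libraries differed far beyond sampling noise (chi-square of at least 219 for each degree of freedom).

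The members and lists were chosen with earlier results of these data known. Named miRNAs were the 6 members, the paralogous clusters with miR-92b, the 3 tested miRNAs most alike to each member and chi-miR-148a-3p; predicted miRNAs among the most alike are left unnamed. The tests relative to a miRNA of the same seed were added after the values were seen, and the seed families are textbook knowledge. Gene positions came from the RefSeq table of ARS1.2, which lists no exons.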

Additional observations from a re-analysis of the deposited data

How the results depend on the processing

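Each library was left out in turn, and scaling, filter, tool, samples in the fit and fold limit were changed one at a time. Library totals without chi-miR-148a-3p, and every alternative of the ratios to a miRNA of the same seed, were chosen after seeing the data. Of 744 alternative values, 598 kept their direction and side of the threshold. The cause of the others was not tested.

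In DP vs LL the count of called members (main value 1) was 0 with DESeq2, limma-voom, upper quartile scaling, chi-miR-148a-3p left out before TMM, a minimum of 10 counts per library, no filter, only 2 stages in the fit and library totals without chi-miR-148a-3p. In those settings 4.6% to 16.8% of all tested were called higher. The count was 4 by library size only (23.7% of all tested called higher), 3 at any fold (17.2%) and 0 to 2 with 1 library left out (8.85% to 14.7%). In DP vs LG (main value 0) the count was 1 with the minimum of 10 counts, where 14.5% of all tested were called lower. It was 2 by library totals without chi-miR-148a-3p (27.8%), and 0 to 1 with 1 library left out (9.49% to 16.6%). For LL vs LG (main value 0) each count is followed by the share of all tested called lower. The count of called members was 2 with DESeq2 (8.48%), only 2 stages in the fit (10.9%) or any fold (4.89%). It was 1 with chi-miR-148a-3p left out before TMM (6.18%) and 6 by library size only (12.9%). With no filter (4.07%) or the minimum of 10 counts (7.87%) it was 3. By library totals without chi-miR-148a-3p (7.05%) it was 4, and with 1 library left out 0 to 2 (1.74% to 7.89%).

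Each goat was sampled at 1 stage, and what the replicate numbers may share was not tested. Correlations of libraries with the same number ran from −0.1014 to 0.214, and 3 of 9 were over 0.1. Those of libraries with different numbers ran from −0.2301 to 0.1495, and 6 of the 9 libraries correlated best with one of their own number. With a replicate block, 0 members were called in DP vs LL (chi-miR-25-5p at 0.97, edgeR adjusted p = 0.0654), and chi-miR-93-5p missed the threshold at any fold (0.62, adjusted p = 0.059). Of all tested miRNAs, 12.2% were called higher in that fit. In the other comparisons the block changed no call of a member. With it 8 paralogues instead of 7 were called lower in DP vs LG, where 10.8% instead of 9.91% of all tested were.

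Hairpins with a changed arm ratio numbered 0 to 1 with 1 library left out in DP vs LL and in DP vs LG. Members changed relative to a miRNA of the same seed (1 in each of DP vs LL and DP vs LG) numbered 0 with only 2 stages in the fit of DP vs LL, and 0 to 1 with 1 library left out in either.

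Signs turned for log2 changes near 0. In DP vs LL chi-miR-93-3p was −0.33 by library totals without chi-miR-148a-3p and −0.11 to 0.49 with 1 library left out. In DP vs LG chi-miR-106b-5p was −0.077 with DESeq2, −0.028 by upper quartile, −0.18 with chi-miR-148a-3p left out before TMM, −0.093 by library size only, −0.23 with no filter or the minimum of 10 counts, −0.73 by library totals without chi-miR-148a-3p and −0.11 to 0.11 with 1 library left out. chi-miR-106b-3p was −0.029 with DESeq2, −0.13 with chi-miR-148a-3p left out before TMM, −0.057 by library size only, −0.19 with no filter, −0.20 with the minimum of 10 counts, −0.70 by library totals without chi-miR-148a-3p and −0.14 to 0.13 with 1 library left out. chi-miR-25-5p was −0.039 with chi-miR-148a-3p left out before TMM, −0.11 with no filter, −0.12 with the minimum of 10 counts, −0.56 by library totals without chi-miR-148a-3p and −0.15 to 0.20 with 1 library left out. With 1 library left out, the arm ratio ranged from −0.16 to 0.18 for miR-106b in DP vs LG and from −0.26 to 0.20 for miR-25 in LL vs LG. The ratio to a miRNA of the same seed then ranged from −0.12 to 0.28 for chi-miR-93-5p in DP vs LL. For LL vs LG it ranged from −0.081 to 0.28 for chi-miR-106b-5p and from −0.072 to 0.21 for chi-miR-25-3p.

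Depth limits chi-miR-93-3p and chi-miR-25-5p, with as few as 27 and 38 counts in a library.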
